A study of Callithrix jacchus with 5 samples.

Results

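MYC, CCNE1, CDC25A and CDKN2B are 4 genes that act on growth and on the passage of a cell from G1, the gap before DNA synthesis, into S phase. They were chosen by name and found by pairing marmoset Ensembl identifiers with symbols, and all 4 were found among the 30811 identifiers counted. RNA was sequenced from marmoset (Callithrix jacchus) cells grown in culture. The 5 libraries are 1 of fibroblasts (E01F, with a P number of 1 in its title), 3 of embryonic stem (ES) cells, 1 for each of 3 lines, and 1 of induced pluripotent stem (iPS) cells that the series title says were made from fibroblasts with RNA. The ES lines are No40, DSY127 and No20, with P numbers of 63, 17 and 45. The labels give no treatment, genotype, animal or culture for any library and do not say whether the iPS cells came from the fibroblasts sequenced, so each line and each group other than ES rests on 1 library.

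MYC is a transcription factor that binds DNA as a dimer with MAX, raises genes of ribosome and metabolite synthesis, and belongs to the original set of reprogramming factors. Cyclin E1, the product of CCNE1, switches on the kinase CDK2 as cells enter S phase. The phosphatase CDC25A removes the phosphates that hold CDK2 and CDK1 inactive, and both it and CCNE1 are classical targets of the E2F factors. CDKN2B encodes p15, an inhibitor of CDK4 and CDK6 that TGF-beta induces and that MYC represses through its partner MIZ1. Pluripotent cells in culture are known for a short G1 phase and for strong cyclin E and CDK2 activity.

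Total counts were 34111715 to 58601185 in the fibroblast and ES libraries and 5746449 in the iPS library. CPM (read counts per 1e6 reads of a library, scaled by TMM factors) are given below, and 3 counts were worth 0.061 to 0.083 CPM in the other libraries and 0.507 CPM in the iPS library. The labelled cell types were checked on markers. All 7 measured pluripotency markers fell in the fibroblast library, where together they summed to 3.84 CPM, as compared with 2937 to 4357 CPM across ES lines and 3707 CPM in iPS cells. Of 11 fibroblast markers 10 rose in the fibroblast library, with a sum of 82158 CPM, where ES lines had 1538 to 2723 CPM. The iPS library stood apart on these markers, at 11240 CPM, most of it from COL1A1, COL1A2 and COL3A1, and edgeR called COL1A2 and PRRX1 higher there than in ES lines. PRRX1 had 389 CPM in iPS cells and 174 CPM in fibroblasts. Of the 11 markers 5 had a lower fitted level in iPS cells than in ES lines. Among them was DCN, at 6.59 CPM in iPS cells, 11.2 ± 1.93 CPM across ES lines and 636 CPM in fibroblasts. The part of fibroblast marker transcripts in the values below was not tested. Markers of other cells summed to at most 2.58 CPM (keratinocyte, 3 genes), 41.9 CPM (melanocyte and neural crest, 5 genes), 49.4 CPM (blood, 3 genes, nearly all RUNX1 in fibroblasts, with PTPRC at or near 0), 294 CPM (muscle, 6 genes, mostly CNN1 in fibroblasts) and 456 CPM (endothelial, 7 genes, mostly PECAM1 and KDR in ES lines). These are bulk libraries, in which fewer cells of a type and less RNA per cell cannot be told apart.

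Each gene was counted over 1 gene model, given here in the coordinates of the files, of unknown genome build. MYC (ENSCJAG00000012620) spans 66986933 to 66991981 on chromosome 16, minus strand, in 3 exon blocks. CCNE1 (ENSCJAG00000001857) spans 24428243 to 24442104 on chromosome 22, plus strand, in 11 exon blocks. CDC25A (ENSCJAG00000002673) spans 23873908 to 23903880 on chromosome 15, minus strand, in 15 exon blocks. CDKN2B (ENSCJAG00000008048) spans 123889134 to 123929914 on chromosome 1, minus strand, in 11 exon blocks.

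The model of CDKN2B differs from the others in what it may hold. It covers 40781 bases, and its exons fall in 3 stretches, the first within 3376 bases of its 5′ end, the next from 14648 to 15001 bases and the last from 33224 bases on. CDKN2A, which encodes the related inhibitor p16 and the unrelated protein ARF, is the protein-coding gene next to CDKN2B in RefSeq's calJac240_pri annotation, and no identifier of the files was paired with CDKN2A. Only 41.1% of identifiers matched a symbol, so CDKN2A may also have a model of its own without one. Whether the CDKN2B model holds reads of CDKN2A was not tested, so reads of these genes may not be told apart here. Every value given for CDKN2B is that of the whole model. The model also lies within MTAP on the other strand, with which it shares 0 exonic bases, and MTAP did not pass in either comparison (22.8 ± 3.10 CPM in the ES lines, 29.2 CPM in fibroblasts and 17.7 CPM in iPS cells).

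The first comparison asked how the fibroblasts differ from pluripotent lines. CCNE1 and CDC25A fell in the fibroblast library, CDKN2B rose, and MYC did not pass, so 3 of the 4 genes were called. Over all 17462 genes tested 18.1% were called, 8.80% higher and 9.28% lower (1537 and 1620 genes, or 1066 and 2016 when scaled by total counts alone). MYC, CCNE1 and CDC25A were below every ES line, as were 39.0% of all genes tested, and CDKN2B was above every ES line, as were 35.4%. The 4 genes were picked with earlier results known, so their count is a description.

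MYC had 157 CPM (7487 counts) in the fibroblast library and 339, 225 and 183 CPM in No40, DSY127 and No20. All 3 ES lines were above the fibroblasts, but the gap between the fibroblasts and No20 was smaller than the SD of the ES lines (249 ± 80.4 CPM, n = 3). The log2 fold change of fibroblasts against ES lines was -0.66 ± 0.44 (SE; edgeR quasi-likelihood test, adjusted p = 0.338). Without No40 it was -0.31, with adjusted p = 0.55 from edgeR.

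CCNE1 had 24.9 CPM (1184 counts) in the fibroblast library and 91.1, 115 and 117 CPM in No40, DSY127 and No20. The fibroblasts lay far below the lowest ES line, and the ES lines lay close together (108 ± 14.6 CPM, n = 3). The log2 fold change was -2.12 ± 0.41 (edgeR adjusted p = 0.0163), and the edgeR call held without any one of the ES lines.

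CDC25A had 22.1 CPM (1050 counts) in the fibroblast library and 69.6, 68.9 and 75.0 CPM in No40, DSY127 and No20. The ES lines were nearly equal (71.2 ± 3.31 CPM, n = 3), and again the fibroblasts lay below all of them. The log2 fold change was -1.69 ± 0.38 (edgeR adjusted p = 0.0272). CDC25A did not pass without No40 (edgeR adjusted p = 0.0619) or without DSY127 (edgeR adjusted p = 0.0715), although the fold change stayed at -1.64 and -1.63.

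CDKN2B had 26.5 CPM (1262 counts) in the fibroblast library and 3.70, 6.76 and 3.48 CPM in No40, DSY127 and No20 (182, 243 and 152 counts). Unlike the other 3 genes it was higher in fibroblasts, above every ES line (4.64 ± 1.83 CPM, n = 3). The log2 fold change was 2.51 ± 0.57 (edgeR adjusted p = 0.0282). The call was lost without No40 (edgeR adjusted p = 0.0786), with total counts in place of TMM factors (edgeR adjusted p = 0.0501) and with the iPS library placed among the ES lines (edgeR adjusted p = 0.0717), at fold changes of 2.45, 2.13 and 2.85.

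The second comparison asked how the iPS cells differ from the same ES lines, which both comparisons share. None of the 4 genes passed the edgeR quasi-likelihood test, in which 0.109% of all genes were called higher and 0.00% lower. At an unadjusted p under 0.05 MYC and CDKN2B were lower, as were 547 of all 17462 genes, with 971 higher. Neither DESeq2 nor limma voom called any of the 4. MYC, CCNE1 and CDKN2B in the iPS library were each below all 3 ES lines, a place that 31.5% of all genes tested held, and CDC25A was inside their range.

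MYC had 90.1 CPM in the iPS library (533 counts, 95% exact Poisson interval 82.6 to 98.1 CPM), the lowest of the 5 libraries. Its log2 fold change against the ES lines was -1.47 ± 0.47 (edgeR adjusted p = 0.419). CDKN2B had 2 counts in the iPS library, or 0.338 CPM (0.041 to 1.22 CPM), under the level of 3 counts. The 3 ES libraries together held 13.2 times that level, with a 95% exact conditional interval of 3.65 to 109.6 times, which covers counting error only. The fitted log2 fold change was -3.77 ± 0.98 (edgeR adjusted p = 0.272).

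CCNE1 had 76.2 CPM in the iPS library (451 counts, 69.4 to 83.6 CPM), below No40, the lowest ES line, whose own interval was 88.5 to 93.8 CPM. Its log2 fold change was -0.50 ± 0.37 (edgeR adjusted p = 0.753). CDC25A had 71.8 CPM (425 counts, 65.2 to 79.0 CPM), and this interval covers the values of all 3 ES lines. Its log2 fold change was 0.01 ± 0.34 (edgeR adjusted p = 0.996), and its sign turned under 4 alternatives, at -0.03 to -0.02.

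**Figure D1:**
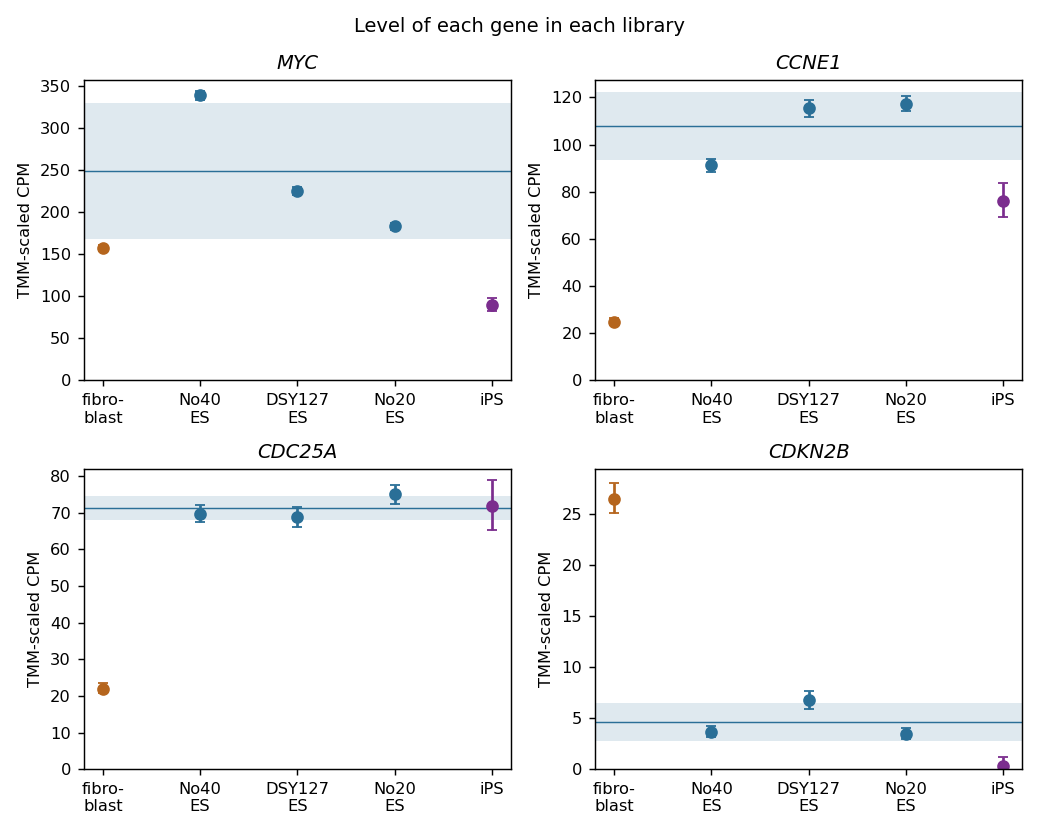
TMM-scaled CPM of MYC, CCNE1, CDC25A and CDKN2B in each library (points, with 95% exact Poisson intervals of the counts as bars), with the mean ± SD of the 3 ES lines as line and band. CCNE1 and CDC25A are lowest in fibroblasts at 24.9 and 22.1 CPM, CDKN2B is highest there at 26.5 CPM, and MYC is lowest in iPS cells at 90.1 CPM.

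The iPS and fibroblast libraries, 1 each, were set side by side without a test, and the exact conditional intervals that follow compare these 2 libraries, not the conditions. MYC in the iPS library was at 0.573 times its fibroblast level (0.524 to 0.626). CCNE1 was at 3.07 times (2.74 to 3.42) and CDC25A at 3.26 times (2.90 to 3.65) the fibroblast level. CDKN2B in the fibroblast library was at 78.4 times its iPS level (21.7 to 648). CCNE1 and CDC25A in the iPS library were nearer to the ES lines than to the fibroblasts. For MYC the fibroblast level lay between that of the iPS library and those of the ES lines, and for CDKN2B the ES lines lay between iPS cells and fibroblasts.

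The 4 genes also differed in how far the ES lines lay apart. The highest ES line was 1.85 times the lowest for MYC (No40 over No20), a ratio that 33.4% of the 11170 genes with an ES mean of at least 5 CPM reached, and their median ratio was 1.59. For CCNE1 the ratio was 1.29 (No20 over No40), reached by 79.8% of these genes. For CDC25A it was 1.09, reached by 97.04% of them, so that few of these genes were steadier across the lines. For CDKN2B, whose ES mean is under 5 CPM, it was 1.94 (DSY127 over No20). MYC was highest in No40, the line with the highest P number, and CDKN2B in DSY127, the line with the lowest. With 1 library per line, origin and P number cannot be told apart.

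The fall of CCNE1 and CDC25A in fibroblasts was set beside genes that mark dividing cells. Of 17 measured proliferation markers, among them MKI67 and TOP2A, none was called by edgeR in fibroblasts (0 higher and 3 lower at an unadjusted p under 0.05, beside 2744 and 3188 of all 17462 genes). DESeq2 called 3 lower, beside 2718 of all genes, and limma voom 0. Of the 17 markers 14 had a lower fitted level in fibroblasts than in ES lines, as did 9562 of all 17462 genes. The median log2 fold change was -0.41, beside -0.15 for all genes. MKI67 went the other way, at 848 CPM in fibroblasts and 562 ± 191 CPM across ES lines. The summed level of the markers was 3370.5 CPM in fibroblasts, 3473 to 4759 CPM across ES lines and 3714 CPM in iPS cells. Per 1000 CPM of these markers, a ratio that does not depend on the scaling between libraries, CCNE1 had 7.38 CPM in fibroblasts and 19.1, 33.2 and 28.5 CPM in No40, DSY127 and No20. CDC25A had 6.54 CPM in fibroblasts and 14.6, 19.8 and 18.2 CPM in the ES lines on this ratio. Both genes were below every ES line on this ratio too, a place whose share over all genes was not counted. The part of proliferation in their fall was not tested. MYC had 46.7 CPM per 1000 CPM of these markers in fibroblasts, inside the range of the ES lines (44.5 to 71.1 CPM). In the iPS library the ratio was 24.3 CPM for MYC, below all ES lines, and 20.5 and 19.3 CPM for CCNE1 and CDC25A, inside their range.

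Close relatives of the 4 genes were compared in TPM, a share of all transcripts that allows for gene length. MYCL, a relative of MYC, had 2.38 TPM in fibroblasts, 9.64, 10.2 and 5.14 TPM in No40, DSY127 and No20, and 5.93 TPM in iPS cells. MYC was far above it in every library, from 74.0 TPM in iPS cells to 318 TPM in No40. CCNE2, which encodes the second cyclin E, had 22.7 TPM in fibroblasts, 11.6, 19.8 and 17.2 TPM in No40, DSY127 and No20, and 17.7 TPM in iPS cells. CCNE1 stood at 104 to 121 TPM in the ES lines and 76.3 TPM in iPS cells, well above CCNE2, but at 24.1 TPM in fibroblasts, next to it. CCNE2 did not pass in either comparison (log2 fold change 0.61 ± 0.56 in fibroblasts, edgeR adjusted p = 0.482).

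CDC25A and CDC25B showed the opposite order in fibroblasts and pluripotent cells. The relatives MYCN and CDC25C had no matched identifier among the listed genes and are not compared here. CDC25A had 44.1 to 49.7 TPM in the ES lines, 44.7 TPM in iPS cells and 13.3 TPM in fibroblasts. CDC25B, the relative best known for starting mitosis, had 6.94, 2.52 and 4.92 TPM in No40, DSY127 and No20, 1.80 TPM in iPS cells and 64.4 TPM in fibroblasts. CDC25B rose in fibroblasts by 3.91 ± 0.51 on the log2 scale (edgeR adjusted p = 0.00489), and it passed in all 13 alternative fits.

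**Figure D2:**
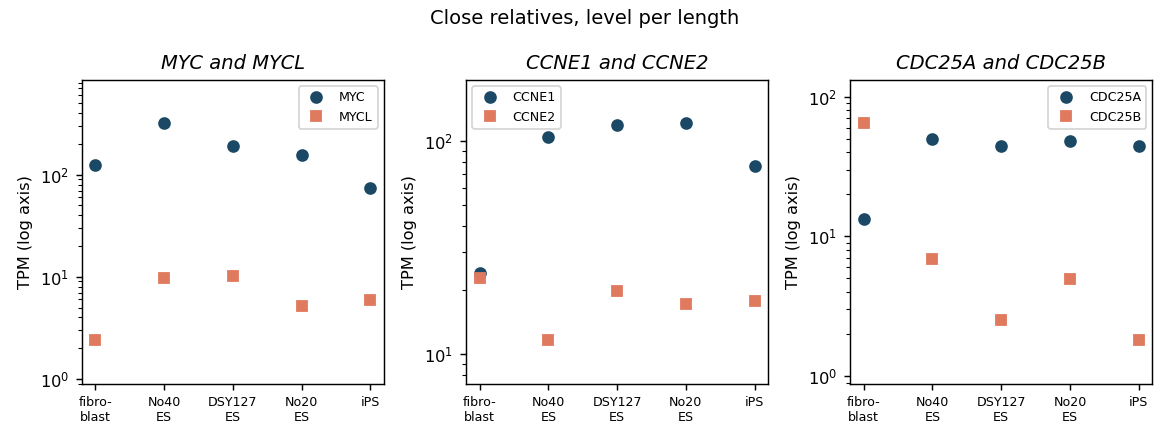
TPM on a log axis of MYC with MYCL, CCNE1 with CCNE2, and CDC25A with CDC25B in each library. In fibroblasts CDC25B (64.4 TPM) lies above CDC25A (13.3 TPM), the reverse of the ES and iPS libraries, and CCNE1 (24.1 TPM) meets CCNE2 (22.7 TPM).

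The wider pathway was described with lists of regulators of MYC and of the G1 to S step, 140 genes tested in all besides the 4. In fibroblasts 6 of them rose and 9 fell by edgeR, or 10.7% against 18.1% of all genes, and their median log2 fold change was -0.09 against -0.15 for all genes. Without No20 14 rose and 10 fell, without No40 4 rose and 5 fell, and with DESeq2 12 rose and 19 fell. With total counts in place of TMM factors the median of all genes moved by -0.38, so medians of lists are given beside that of all genes.

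The 12 measured genes of the MYC network are partners and antagonists of MYC with their relatives, MYCL and MLXIPL among them. None was called in fibroblasts by edgeR, where 18.1% of all genes were. At an unadjusted p under 0.05 from edgeR 2 were higher and 1 lower. DESeq2 called 1 higher and 1 lower, and limma voom 1 higher. The median log2 fold change was 0.31, beside -0.15 for all genes. MAX, the partner that MYC needs to bind DNA, had 40.7 CPM in fibroblasts, 33.4 ± 5.33 CPM across ES lines and 79.8 CPM in iPS cells (log2 fold change 1.26 ± 0.36 against ES, edgeR adjusted p = 0.35). MXD1, which competes with MYC for MAX, had 18.6 CPM in fibroblasts, 5.04 ± 1.10 CPM across ES lines and 1.35 CPM in iPS cells. It just missed the threshold in fibroblasts (1.88 ± 0.54, edgeR adjusted p = 0.0562). MXD3 and MNT, of the same group, had log2 fold changes of 1.34 ± 0.54 and 0.88 ± 0.40 in fibroblasts and did not pass. MGA, of the same list, went the other way in fibroblasts (-0.65 ± 0.60, edgeR adjusted p = 0.49). Of the 12 genes 4 had a lower fitted level in fibroblasts than in ES lines.

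Of 23 measured genes known as targets of MYC, 20 had a lower fitted level in fibroblasts than in ES lines, as did 9562 of all 17462 genes. The median log2 fold change of the list was -0.50, beside -0.15 for all genes. Only NOP56, a component of the box C/D particles that modify ribosomal RNA, passed (208 CPM against 727 ± 183 CPM, log2 fold change -1.81 ± 0.43, edgeR adjusted p = 0.0323), and it did not pass without DSY127. ODC1, the first enzyme of polyamine synthesis, had 266 CPM in fibroblasts, 526 ± 72.8 CPM across ES lines and 365 CPM in iPS cells. In iPS cells, where MYC was lowest, 18 of the 23 had a lower fitted level than in ES lines, as did 9885 of all 17462 genes. The median log2 fold change was -0.18, beside -0.11 for all genes, and none was called by edgeR, DESeq2 or limma voom or had an unadjusted p under 0.05.

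Of 12 cyclins and kinases of G1 and S besides CCNE1, CCNA1, an A-type cyclin typical of germ cells, was called in fibroblasts (0.441 CPM against 8.07 ± 4.25 CPM, log2 fold change -4.18 ± 1.04, edgeR adjusted p = 0.0368). It did not pass without No40, with limma voom or with counts thinned to the shallowest library. CDK2, the partner of cyclin E, had 92.2 TPM in fibroblasts and 40.0, 35.8 and 81.9 TPM in No40, DSY127 and No20, so No20 was nearer the fibroblasts than the other lines were. CDK4 and the D-type cyclins CCND2 and CCND3, which act earlier in G1 and whose kinases p15 inhibits, did not pass either. CCND1 and CDK6 had no matched identifier among the listed genes. CCND2 had 41.4 TPM in fibroblasts, 66.2 to 159 TPM in the ES lines and 32.7 TPM in iPS cells. CDK4 had 412 TPM in fibroblasts, within the 206 to 563 TPM of the ES lines, and 196 TPM in iPS cells.

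Of 12 genes around CDC25, CDC25B rose and CHEK2 fell in fibroblasts. CHEK2, a checkpoint kinase that marks CDC25A for destruction after DNA damage, had 24.7 CPM in fibroblasts and 126 ± 27.3 CPM across ES lines (log2 fold change -2.35 ± 0.44, edgeR adjusted p = 0.0152). It thus fell together with CDC25A and passed in all 13 alternative fits. WEE1, a kinase that opposes CDC25, had 29.2 CPM in fibroblasts and 83.0 ± 36.0 CPM in the ES lines and did not pass (edgeR adjusted p = 0.108).

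Only 3 other CDK inhibitors had an identifier. CDKN1C, an imprinted inhibitor also called p57, fell in fibroblasts (6.95 CPM against 56.1 ± 27.1 CPM, log2 fold change -3.01 ± 0.76, edgeR adjusted p = 0.0386), opposite to CDKN2B, and did not pass without No40, with limma voom or with the iPS library placed among the ES lines. CDKN1B, which encodes p27, had 108 CPM in fibroblasts, 60.9 ± 16.5 CPM across ES lines and 40.9 CPM in iPS cells and did not pass.

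Among 17 pocket proteins and E2F factors, which gate the genes of S phase, RBL2 rose and E2F5 fell in fibroblasts. RBL2, the pocket protein p130 of resting cells, had 84.7 CPM in fibroblasts and 20.8 ± 7.003 CPM across ES lines (log2 fold change 2.03 ± 0.46, edgeR adjusted p = 0.0278), a call lost without No40 and with total counts alone. E2F5, one of the repressive E2F factors, had 3.82 CPM against 35.01 ± 4.50 CPM (-3.19 ± 0.50, edgeR adjusted p = 0.00861). RB1, the retinoblastoma protein, had 131 CPM in fibroblasts, 66.6, 37.4 and 72.8 CPM in No40, DSY127 and No20, and 5.07 CPM (30 counts) in iPS cells. In the iPS library it was far below every ES line, with a log2 fold change of -3.54 ± 0.61 that edgeR did not call (adjusted p = 0.101) and DESeq2 did. E2F1 did not pass in either comparison (21.4 CPM in fibroblasts, 17.4 ± 4.78 CPM across ES lines and 22.5 CPM in iPS cells).

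Of 29 identifiers of E2F targets besides CCNE1 and CDC25A, 2 fell and none rose in fibroblasts by edgeR, 6.9% against 18.1% of all genes. The median log2 fold change was -0.38, beside -0.15 for all genes. The fold changes of CCNE1 (-2.12) and CDC25A (-1.69) both lay below the median of this list. PCNA, the sliding clamp of the replication fork, had 210.4 CPM in fibroblasts and 205 ± 27.1 CPM in the ES lines. DESeq2 called 6 of the list lower and 1 higher, beside 2718 and 2055 of all 17462 genes.

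Of 12 tested genes that control the turnover of MYC and cyclin E, SKP2 fell in fibroblasts (43.4 CPM against 170 ± 37.3 CPM, log2 fold change -1.97 ± 0.43, edgeR adjusted p = 0.0252), and it did not pass without No40. SKP2 is the substrate receptor of a ubiquitin ligase of p27 that also acts on MYC. FBXW7, the receptor that sends both MYC and cyclin E to the proteasome, had 25.9 CPM in fibroblasts, 54.9 ± 14.7 CPM across ES lines and 80.5 CPM in iPS cells and did not pass in either comparison (edgeR adjusted p = 0.143 and 0.757).

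Of 20 identifiers of TGF-beta signalling and of control of the CDKN2B locus, 4 rose and 1 fell in fibroblasts. That is 25% of the list, against 18.1% of all genes, and the median log2 fold change was 0.88, beside -0.15 for all genes. TGFBR2, the type II receptor of TGF-beta, had 238 CPM in fibroblasts and 4.19, 1.67 and 4.35 CPM in No40, DSY127 and No20 (log2 fold change 6.12 ± 0.54, edgeR adjusted p = 0.00199). The ligand TGFB1 had 209 CPM in fibroblasts against 11.9 ± 5.48 CPM (4.13 ± 0.49, edgeR adjusted p = 0.0039). Both passed in all 13 alternative fits. They were above every ES line in the fibroblast library, as were CDKN2B and 35.4% of all genes tested. A link of either to CDKN2B was not tested. The ligands TGFB3 (49.5 CPM against 10.2 ± 2.12 CPM) and TGFB2 (125 CPM against 11.3 ± 10.1 CPM) rose too, but TGFB3 did not pass with the iPS library among the ES lines, and TGFB2 did not with total counts alone, without No40 or under upper-quartile scaling. EZH2, the methyltransferase of the Polycomb complex known to silence the locus, fell in fibroblasts (55.3 CPM against 149 ± 14.9 CPM, -1.43 ± 0.36, edgeR adjusted p = 0.0398). That call was lost without any one of the ES lines. The other Polycomb genes of the list went both ways, and edgeR called none of them. BMI1 (2.08 ± 0.80), CBX8 (1.72 ± 0.90), CBX7 (1.48 ± 0.60), EED (0.90 ± 0.52) and SUZ12 (0.10 ± 0.33) were higher, and RNF2 (-1.05 ± 0.35) was lower. SMAD3, which carries the TGF-beta signal, missed the threshold (1.67 ± 0.48, edgeR adjusted p = 0.058), and ZBTB17, which encodes MIZ1, did not pass in fibroblasts (0.33 ± 0.40, edgeR adjusted p = 0.601).

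In the iPS library none of the 140 listed regulators was called by edgeR (6 higher and 4 lower at an unadjusted p under 0.05, beside 971 and 547 of all 17462 genes; 0 with limma voom). DESeq2, which called 349 of all genes higher and 67 lower, called RB1 lower and CUL3 and FOXO3 higher. The iPS library had 2.54 CPM of TGFB2 and 6.09 CPM of TGFB1, against 125 and 209 CPM in fibroblasts, and 3.38 CPM of TGFBR2, inside the range of the ES lines. TGFB3 had 29.9 CPM in iPS cells, above every ES line (1.56 ± 0.43, edgeR adjusted p = 0.319).

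**Figure D3:**
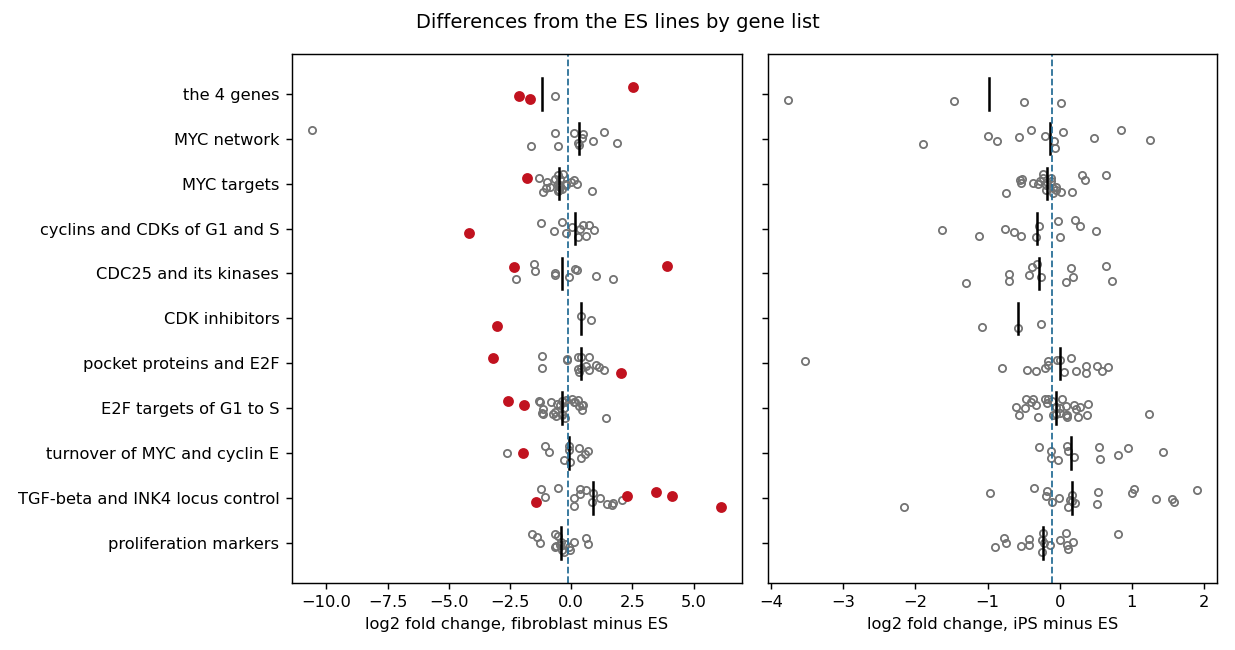
Log2 fold change of every listed gene tested, fibroblasts against ES lines on the left and iPS cells against ES lines on the right, 1 row per list (filled red points passed the edgeR test, open points did not, bars are list medians, and the dashed line is the median of all genes). In fibroblasts 3 of the 4 genes and 15 of 140 listed regulators passed, and in iPS cells none did.

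The genes whose pattern over the 5 libraries was most like each of the 4 were found by the distance between log2 CPM profiles centred on their means, among 8659 named genes with a mean of at least 5 CPM. For CDC25A these were PDE7A, TIMM17B and PAICS, at distances of 0.08, 0.16 and 0.20 on the log2 scale. PAICS, an enzyme of purine synthesis, had 229 CPM in fibroblasts, 651 to 701 CPM across ES lines and 711 CPM in iPS cells. For CCNE1 they were PICK1, NPM3 and PDZK1 (0.23, 0.32 and 0.33), and for MYC they were VPS37A, GPAT3 and COL4A2 (0.37, 0.41 and 0.42). CDKN2B had no gene as close: the nearest were LMCD1, TNFAIP2 and TAGLN, at 0.81, 1.17 and 1.46. LMCD1 had 15.7 CPM in fibroblasts, 3.74, 7.09 and 4.39 CPM in No40, DSY127 and No20 and 0.338 CPM in iPS cells. The iPS values of CDKN2B (2 counts) and LMCD1 lay under the level of 3 counts, so the distances of CDKN2B carry that counting error. Ranked by Pearson r instead, only PICK1 (for CCNE1) among these 12 genes was again in the nearest 3.

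Of the 18 calls in fibroblasts, 3 among the 4 genes and 15 among the listed regulators, 8 held under all 13 alternatives of scaling, filter, tool and samples and 10 were lost under at least 1. CCNE1 passed in fibroblasts under all 13 alternatives, with log2 fold changes from -2.50 to -1.94. MYC passed under none of the 13 in fibroblasts or 12 in iPS cells and was below the ES lines in each.

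**Figure D4:**
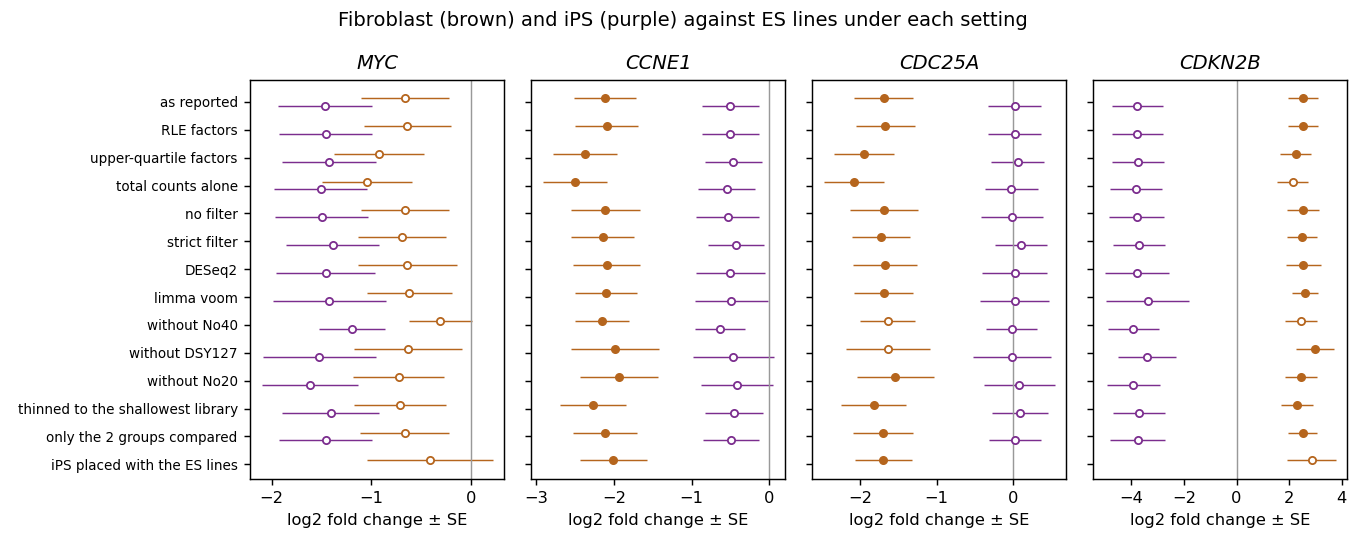
Log2 fold change ± SE of the 4 genes against the ES lines under each setting, for fibroblasts (brown) and iPS cells (purple), with filled points for an adjusted p under 0.05. CCNE1 passes in fibroblasts under every setting, CDC25A misses without No40 or DSY127, and CDKN2B misses under 3 settings.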

How the data were processed

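RNA was extracted with a Qiagen RNeasy kit, per the labels' protocols. The deposited values are raw counts of reads for each gene, identical in the series table and the 5 library files. The deposited table also holds the length of each gene model, used for TPM. The submitters' processing notes list featureCounts 1.5.2, STAR 2.5.3a and Trim Galore 0.4.0, but not what each did. The build of the genome and how strand and multi-mapping were handled are unknown, so reads of overlapping genes or copies may be shared. Of 30811 identifiers 12660 (41.1%) matched a symbol, as did 197 of 248 listed symbols in 17 lists. RefSeq's table (calJac240_pri) served only for the neighbour of CDKN2B.

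Counts were fitted in R 4.3.3 with edgeR 4.0.16 (filterByExpr, TMM, glmQLFit, glmQLFTest), with all 5 libraries in 1 fit by group. This left 17462 genes, 2 residual degrees of freedom and a common biological coefficient of variation of 0.458. The fit takes the spread of the single fibroblast and iPS libraries to equal that of the ES lines. Its p-values rest on the spread between the 3 lines, which edgeR moderates across genes, and not on the spread of each gene alone. Benjamini-Hochberg adjustment ran over all genes, with calls under 0.05. DESeq2 1.42.0 and limma 3.58.1 (voom) were alternatives, with RLE, upper-quartile and no factors, no filter, a strict filter (1 CPM in 3 libraries), leaving out each ES line, only the 2 groups compared, the iPS library among the ES lines, and thinning to the shallowest library. Log2 CPM profiles used a prior count of 2. Intervals (95%) cover counting error only, as reads were counted without molecular identifiers. Steps were tested on simulated counts. Promoter motifs were not analysed here. Values of some called E2F targets are not reported here.

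The 4 genes, lists and tests were chosen with earlier results of these data known. Named genes are the 4, up to 4 called genes per list, close relatives and partners, and the 3 genes most alike in pattern to each. TGFB2, CUL3, FOXO3, PCNA, ODC1, WEE1, MXD1, SMAD3, ZBTB17, MTAP, DCN, BMI1, CBX7, CBX8, EED, SUZ12 and RNF2 were chosen after their values were seen. So were MGA, the genes in the closing section and the ratio to proliferation markers.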

Additional observations from a re-analysis of the deposited data

How the results depend on the processing

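With edgeR, leaving out each ES line in turn gave fold changes in fibroblasts (log2) of -1.64 to -1.54 for CDC25A and 2.45 to 2.97 for CDKN2B, and -0.022 to 0.076 for CDC25A in iPS cells. CDKN2B was no longer called with total counts alone (2.13) or with the iPS library among the ES lines (2.85), and CDC25A in iPS cells turned to -0.030 with total counts alone and -0.018 without a filter. The log2 ratio of its iPS level to the ES mean turned too, to -0.030 in CPM on total counts alone and -0.081 in TPM. Without No40 CDC25A and CDKN2B were not called, and without DSY127 CDC25A was not. No other call on the 4 genes changed under these alternatives. The 1537 higher and 1620 lower genes in fibroblasts became 924 to 2184 and 818 to 2366 when leaving out a line, and 2718 lower with DESeq2 and 1009 lower with limma voom. The 19 higher and 0 lower genes in iPS cells became 0 to 256 and 0 to 12 when leaving out a line, 198 and 6 without a filter, 349 and 67 with DESeq2, 126 and 2 after thinning, and 5 higher with limma voom. The 6 higher and 9 lower listed regulators in fibroblasts became 4 to 14 and 5 to 10 when leaving out a line, 12 and 19 with DESeq2, 15 lower with upper-quartile factors and 18 lower with total counts alone. In iPS cells, where edgeR called 0, DESeq2 gave 2 higher and 1 lower, and 1 was lower without a filter and, when leaving out a line, 0 to 1. The cause was not tested. No paired analysis was possible because the labels give no replicate numbers that the groups share. The depth of the iPS library limits CDKN2B (2 counts) most.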

Other observations

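Some listed genes varied more between the ES lines than the 4 genes did. USP28, a deubiquitinase that stabilises MYC, had 327, 232 and 83.8 TPM in No40, DSY127 and No20, 227 TPM in iPS cells and 31.4 TPM in fibroblasts, and did not pass in fibroblasts (edgeR adjusted p = 0.0597). MLXIPL, the glucose-responsive factor of the MYC network, had 6.60, 4.03 and 0.164 TPM in these lines, 4.58 TPM in iPS cells and no count in fibroblasts (edgeR adjusted p = 0.067). CUL3, a ubiquitin ligase scaffold that acts on cyclin E, had 548 CPM in iPS cells and 203 ± 30.5 CPM across ES lines (log2 fold change 1.43 ± 0.32, edgeR adjusted p = 0.185). FOXO3, a factor that can raise CDK inhibitors, had 81.8 CPM in iPS cells against 21.8 ± 7.36 CPM (1.91 ± 0.46, edgeR adjusted p = 0.232). CKS1B, a cofactor of SKP2, is listed at 0 in all 5 libraries.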
